A study of Mus musculus with 6 samples.

Results

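The mRNAs described here encode the respiratory chain and the ATP synthase, the enzymes of oxidative phosphorylation, in E0771 tumour cells that had been in contact with T cells. Members were taken by symbol: protein-coding rows that begin with mt-, are named as a Ndufa, Ndufb, Ndufc, Ndufs or Ndufv gene, are Sdha, Sdhb, Sdhc or Sdhd, or belong to the Uqcr, Cox4 to Cox8 and Atp5 families. The rule found 95 genes among 28063 in the table, of which 16389 are protein-coding. Mitochondrial DNA encodes 13 of them (7 in complex I, 1 in complex III, 3 in complex IV and 2 in complex V), and nuclear chromosomes encode 82 (37 in complex I, 4 in complex II, 8 in complex III, 16 in complex IV and 17 in complex V). The symbols also take in a few proteins that are not core subunits. One is Cox7a2l, a factor linked to supercomplexes of complexes III and IV, whose function in these cells was not tested.

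E0771 is a mouse mammary carcinoma line from a C57BL/6 mouse. It was used as 3 populations with 2 libraries each: cells expressing the PD mutant of Malt1 (Malt1_PD), cells with the wild-type form (Malt1_WT) and cells with a control vector (Vector). PD is not spelled out in the labels, and they do not say how the genes were delivered or whether a population was a single clone, so an effect of a Malt1 form and a difference between cell populations cannot be told apart. All 3 populations had spent 12 hours with activated CD8 T cells, 3 effectors per target cell, were then washed, trypsinised and put back in culture, and were lysed after another 6 hours. Separate cultures for the libraries of a group are not stated, and the p-values below describe the spread among these libraries, which may be technical.

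Library totals ran between 14045390 and 19962014 counts. Malt1 itself had 106 and 95.7 CPM (counts scaled to library size with TMM factors) in Malt1_PD, 67.2 and 82.1 CPM in Malt1_WT, against 23.8 and 31.3 CPM in Vector, so both Malt1 populations stood above Vector. T cell transcripts were scarce. Of 14 listed CD8 T cell genes, 10 had a row, and their summed level was 1.49 to 2.42 CPM in every library, most of it Lck; Cd8a was at 0 in 5 of the 6 libraries. The carcinoma marker Krt8 stood at 108 to 124 CPM, while Epcam was at 6.16 to 8.97 CPM, Cdh1 at no more than 0.450 CPM, and the mesenchymal filament gene Vim was the most abundant marker listed. Krt18, the usual keratin partner of Krt8, was at 0.224 to 0.598 CPM, and Fn1, a mesenchymal matrix gene, at no more than 0.178 CPM. mt-Co1 and mt-Cytb, which mark the chain, were high in all 6 libraries.

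Oxidative phosphorylation passes electrons from NADH through complex I, and from succinate through complex II, to ubiquinone, then through complex III and cytochrome c to complex IV, where oxygen is reduced. Complexes I, III and IV pump protons out of the matrix, and the ATP synthase, complex V, uses their return to make ATP. Mitochondrial DNA encodes hydrophobic core subunits of complexes I, III, IV and V, while complex II and all other subunits are encoded in the nucleus, made in the cytosol and imported. The mitochondrial mRNAs are cut from long polycistronic transcripts of both strands, with mt-Nd6 alone on the light strand, and their levels depend on processing and stability as well as on transcription.

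A stretch of mitochondrial DNA is also present in the mouse nuclear genome, and the sequences below show how little it differs, because it bears on which of the 13 genes can be counted without doubt. In GENCODE release M21 (build GRCm38), 7 annotated pseudogenes lie next to each other at chr1:24611535-24616197 on the minus strand, 4663 bases that run parallel to chrM:6390-11042. The last part of mt-Co1 and its copy Gm29216 differ at 1 of 483 aligned bases, and the base is in capitals in the lines below (chrM:6390-6433 on the plus strand and chr1:24616145-24616188 on the minus strand):
mt-Co1: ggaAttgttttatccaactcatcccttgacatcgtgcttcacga
Gm29216: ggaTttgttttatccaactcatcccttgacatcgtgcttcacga
mt-Nd3 and its copy Gm28438 also differ at 1 base, of 345 aligned, which is again in capitals (chrM:9459-9501, plus, and chr1:24613077-24613119, minus):
mt-Nd3: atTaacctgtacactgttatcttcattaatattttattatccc
Gm28438: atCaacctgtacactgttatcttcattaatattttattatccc
mt-Co2 and its copy Gm28661 have no differing base over 681, as the first 80 of them show (chrM:7013-7092, plus, and chr1:24615486-24615565, minus):
mt-Co2: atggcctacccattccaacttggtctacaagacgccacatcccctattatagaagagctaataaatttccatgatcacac
Gm28661: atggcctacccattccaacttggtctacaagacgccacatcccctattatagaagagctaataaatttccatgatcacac

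The same comparison found no differing base between mt-Atp6 and Gm10925 (678 aligned), mt-Co3 and Gm28437 (783), mt-Nd4l and Gm10222 (294), or mt-Nd4 and Gm28439 (876). mt-Co2, mt-Atp6, mt-Co3, mt-Nd3 and mt-Nd4l were copied over nearly their whole length: between 97.0% and 99.8% of the windows of 150 bases, the length of 1 read, were identical in the copy. For mt-Nd4 this share was 59.2%, and for mt-Co1, whose copy covers only its end, 23.6%. mt-Atp8 has no annotated copy, but its place falls inside the copied stretch, at chr1:24614609-24614812. mt-Nd1, mt-Nd2, mt-Nd5, mt-Nd6 and mt-Cytb lie outside it. Reads that match several places can be dropped, split or given to 1 place, and which of these was done is not given in the sources used here.

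Mitochondrial genes also overlap each other. The end of mt-Atp8 and the start of mt-Atp6, both in the membrane part of the ATP synthase, share 43 bases, and the end of mt-Nd4l and the start of mt-Nd4, both membrane subunits of complex I, share 7; shared bases are in capitals (chrM:7907-7989 and chrM:10147-10193, plus strand):
mt-Atp8 and mt-Atp6: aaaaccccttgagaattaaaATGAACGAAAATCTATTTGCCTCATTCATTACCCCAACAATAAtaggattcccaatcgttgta
mt-Nd4l and mt-Nd4: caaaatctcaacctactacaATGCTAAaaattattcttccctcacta
Each of these pairs is made as 1 bicistronic mRNA, so counts for the partners come from the same molecules and their levels set apart by gene are uncertain.

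Per length, mt-Co1 was the most abundant member, and mt-Atp8 and the 5 genes copied over nearly their whole length were far below the 5 genes outside the copied stretch. Levels between genes are given as RPKM, counts scaled to library size and to kilobases of the deposited gene length, as means over the 6 libraries. For nuclear genes the deposited length can far exceed the longest coding transcript, as for Atp5l (6443 against 544 bases). Ranks between genes therefore depend on these lengths. mt-Co1, the catalytic subunit of complex IV, stood at 6321 RPKM, followed by the complex I subunits mt-Nd1 at 2132 RPKM and mt-Nd2 at 2018 RPKM and by mt-Cytb, the only mitochondrially encoded subunit of complex III, at 1572 RPKM. The 5 genes outside the stretch spanned 762 to 2132 RPKM. The 5 genes copied over nearly their whole length spanned 48.9 to 204 RPKM, with mt-Co2, the copper-binding subunit that takes electrons from cytochrome c, at the top and mt-Nd4l at the bottom. mt-Atp8 had 68.1 RPKM, and mt-Nd4, copied in part, had 812 RPKM. Library by library the sets stayed apart, since mt-Co2 reached at most 227 RPKM and mt-Nd6, the lowest gene outside the stretch, at least 652 RPKM.

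The pseudogenes took up a large share of the counts where the copy was complete. Of the counts given to mt-Co2 or Gm28661 together, 37.3% to 42.0% were on the copy across the 6 libraries. The copy's share was 47.5% to 53.0% for mt-Atp6, 38.5% to 41.7% for mt-Co3, 51.4% to 63.5% for mt-Nd3 and 31.7% to 39.9% for mt-Nd4l. It was 2.80% to 3.87% for mt-Nd4 and 0.377% to 0.635% for mt-Co1. The low levels of the 5 copied genes stood beside counts of similar size on copies that differ from them at no more than 1 aligned base. The part that read assignment plays in those levels was not tested.

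**Figure D1:**
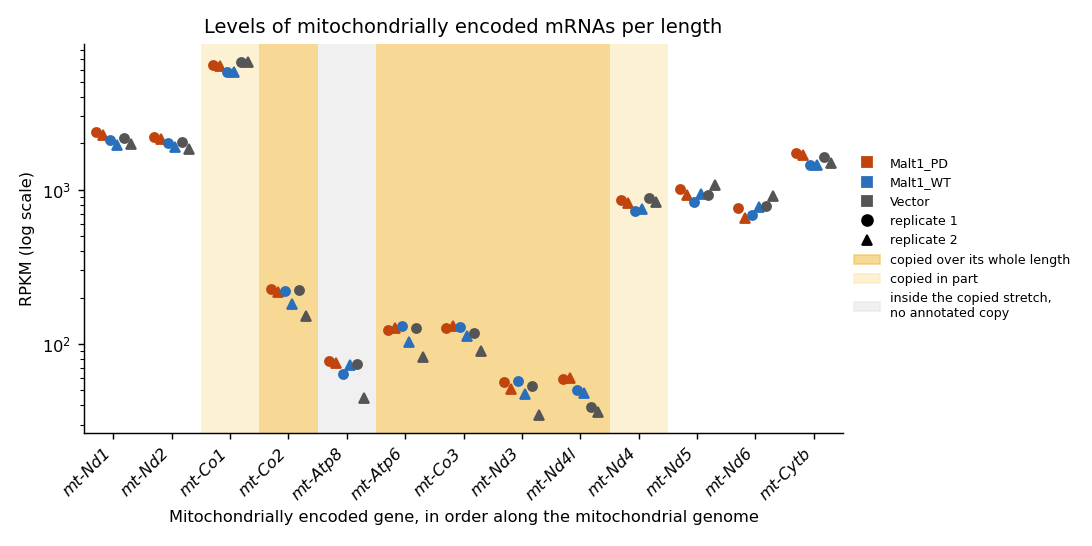
Level of each mitochondrially encoded mRNA in RPKM (log axis), in order along the mitochondrial genome, with 1 point per library (Malt1_PD, Malt1_WT and Vector from left to right within a gene; circles replicate 1, triangles replicate 2). Shaded genes lie in the stretch copied on chromosome 1: the 5 copied over nearly their whole length average 48.9 to 204 RPKM, against 762 to 2132 RPKM for the 5 outside the stretch.

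Nuclear subunits had a median of 42.4 RPKM over all 82 genes, and 75 of them lay above the median of all genes tested, 5.82 RPKM. The catalytic core of the ATP synthase led: Atp5b, the catalytic beta subunit, had 404 RPKM and Atp5a1, the alpha subunit of the same hexamer, 297 RPKM. At the other end of complex V stood Atp5s, a coupling factor B protein, at 5.67 RPKM. In complex I the lowest was Ndufa4l2, at 0.424 RPKM. Complex II ran between Sdhd, a membrane anchor, at 90.0 RPKM and Sdhc, the other anchor, at 33.4 RPKM. Complex III ran between Uqcr10, a small accessory subunit, at 124 RPKM and Uqcrc2, a core protein, at 38.4 RPKM. In complex IV, Cox6b1, which faces the intermembrane space, had 207 RPKM and its testis form Cox6b2 had 0.0412 RPKM.

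Tissue isoforms of complex IV were strongly one-sided. Cox4i1, the ubiquitous form of subunit 4, had 198 RPKM, while Cox4i2, the form known from lung and hypoxia, had 0 to 0.168 CPM in the 6 libraries, at the level of 3 counts or below. Cox6a1 had 180 RPKM, against 0.323 RPKM for the heart and muscle form Cox6a2. Cox7a2, the ubiquitous form, had 66.0 RPKM and the related Cox7a2l 92.2 RPKM, against 1.32 RPKM for the heart and muscle form Cox7a1. Cox8a had 190 RPKM. Ndufa4, grouped by its symbol with complex I but found in complex IV, had 79.1 RPKM, and its hypoxia-induced relative Ndufa4l2 had the 0.424 RPKM given above. The 3 genes that encode the same c subunit of the ATP synthase ring lay closer together, with 100 RPKM for Atp5g2, 87.4 RPKM for Atp5g3 and 18.1 RPKM for Atp5g1. Part of that gap comes from the deposited lengths, 1675, 2181 and 4912 bases. In raw counts Atp5g2 had 2260 to 3382 per library and Atp5g1 1304 to 1689. Of the 82 nuclear members, 13 have at least 150 bases that match another gene's transcript at 98% identity or more, among them Atp5g1 and Cox7a2l, so their levels are less certain.

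**Figure D2:**
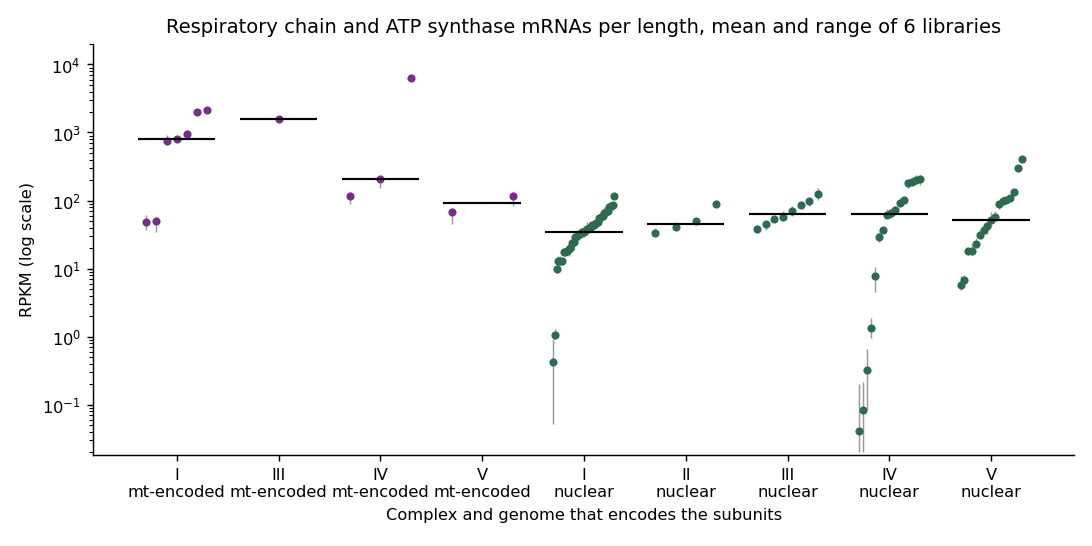
Level of each of the 95 members in RPKM (log axis) by complex and encoding genome. Points are means and grey lines the range of the 6 libraries, black bars are medians over genes, and ranges that reach 0 are drawn down to 0.02; nuclear subunits of each complex have medians of 34.8 to 64.1 RPKM, while mt-Co1 reaches 6321 RPKM.

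As a share of each library, the mitochondrially encoded mRNAs took 2.03% and 1.98% of all counts in Malt1_PD, 1.80% and 1.80% in Malt1_WT, and 1.999% and 1.959% in Vector. The Malt1_WT libraries were below the other 4, and the Malt1_PD and Vector ranges overlapped. The nuclear subunits took 0.912% and 0.929% in Malt1_PD, 0.987% and 0.874% in Malt1_WT, and 1.03% and 0.851% in Vector. Here all 3 groups overlapped, and the libraries of Malt1_WT and Vector lay far apart. In bulk RNA a lower share of cells that express a gene and less of its RNA per cell cannot be told apart.

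Summed counts of mitochondrially encoded over nuclear members came to 2.22 and 2.13 in Malt1_PD, 1.82 and 2.06 in Malt1_WT, and 1.93 and 2.30 in Vector. Malt1_PD lay above Malt1_WT and between the Vector libraries. mt-Co1 alone made up 49.1% to 52.7% of the mitochondrial counts, so the sum follows that gene. One library stood apart in ribosomal RNA: the mitochondrial rRNAs took 0.196% of replicate 1 of Malt1_PD and 0.0795% to 0.112% of the other 5, and 5 genes that collect ribosomal sequence took 0.623% and 0.0839% to 0.211%. The protein-coding shares of that library were close to those of its partner.

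**Figure D3:**
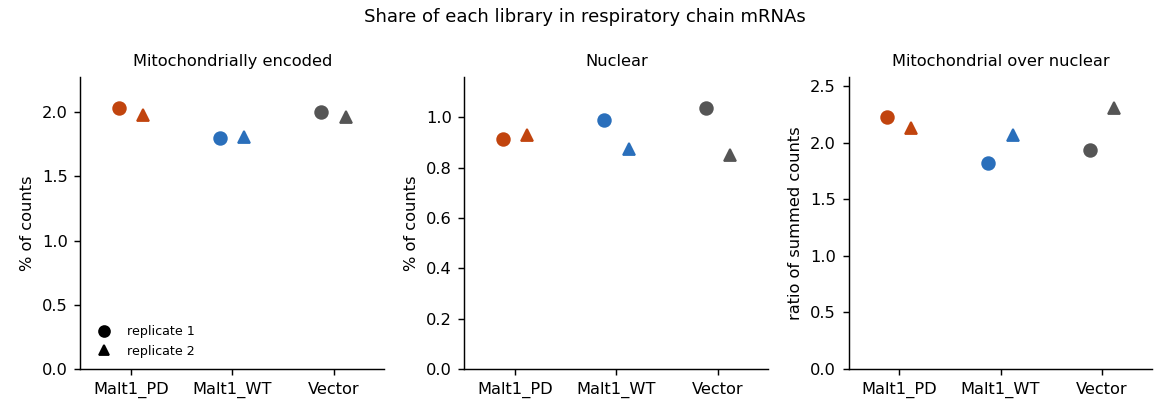
Percent of each library's counts in mitochondrially encoded members (left) and in nuclear members (middle), and the ratio of the summed counts (right), by group; circles are replicate 1 and triangles replicate 2. The Malt1_WT libraries lie lowest in the left panel, both at 1.80%, and the nuclear shares of Vector span 0.851% to 1.03%.

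The nuclear subunits differed more between the libraries of Vector, and between those of Malt1_WT, than between the group means. In Vector, 78 of the 79 nuclear members that passed the low-count filter were higher in replicate 1 than in replicate 2, by a median of 0.39 (log2 CPM). In Malt1_WT, again 78 of 79 were higher in replicate 1, by a median of 0.22. In Malt1_PD, 28 of 79 were, with a median of -0.02. The exception in Vector was Ndufb2, an accessory subunit of complex I, with only 102 and 130 counts there. Its deposited length is 5628 bases, but the longer Atp5l (6443 bases) and Ndufs1 (8086 bases) were higher in replicate 1, by 0.40 and 0.17.

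In Malt1_WT and Vector the difference between replicates moved with gene length across genes. Nuclear members are short, with a median length of 1587 bases against 3738 for all genes tested, and mitochondrially encoded members are shorter still, with 784. Over 9594 well-counted genes the difference between the replicates correlated with length at a Spearman rho of 0.05 in Malt1_PD, -0.53 in Malt1_WT and -0.67 in Vector, all within pairs of single libraries. For the nuclear members alone rho was -0.07 in Malt1_PD, -0.40 in Malt1_WT and -0.53 in Vector. For the 13 mitochondrially encoded genes rho was 0.05 in Malt1_PD, -0.20 in Malt1_WT and -0.59 in Vector. In Vector, mt-Nd5 and mt-Nd6 were lower in replicate 1, both at -0.23, against the direction of the other 11. The part of library preparation in these differences was not tested, and every comparison with Vector or Malt1_WT below rests on these pairs.

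**Figure D4:**
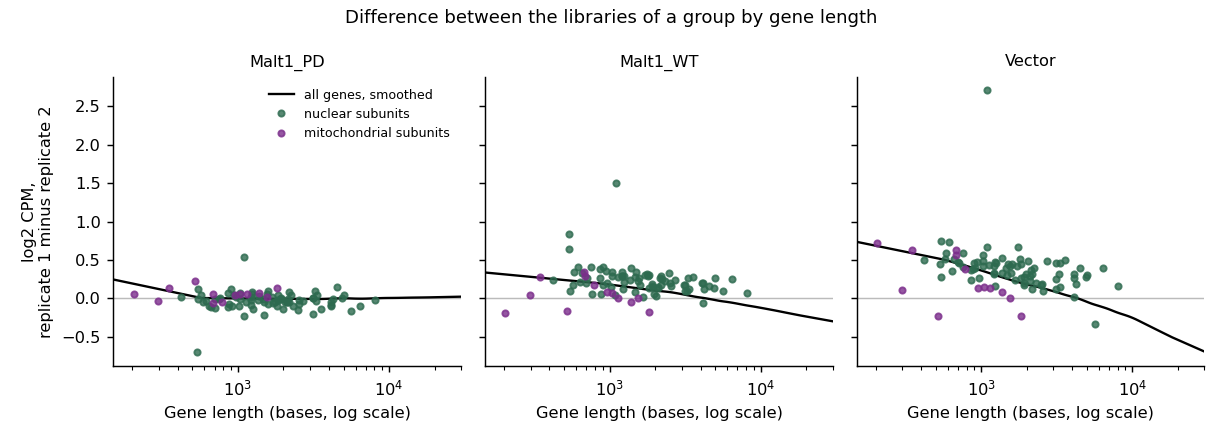
Difference in log2 CPM between replicate 1 and replicate 2 within each group, by gene length (log axis), with nuclear members in green, mitochondrially encoded members in purple and the smoothed curve of 9594 well-counted genes in black. Nuclear members lie above 0 in Malt1_WT (median 0.22) and Vector (median 0.39) and around 0 in Malt1_PD (median -0.02).

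Between Malt1_PD and Vector no member was called at an adjusted p under 0.05 in edgeR's quasi-likelihood fit, Benjamini-Hochberg adjusted, where 1 of 14675 genes was (0.00681%, Malt1). DESeq2 and limma-voom also called no member. At an unadjusted p under 0.05 the mitochondrially encoded mt-Nd4l and mt-Co3 were higher (2 of 13) and the nuclear Atp5s and Atp5o lower (2 of 79), where 3.73% of all genes were higher and 4.88% lower. The median log2 fold change of the mitochondrially encoded genes was 0.17, with 9 of 13 above 0, and that of the nuclear genes -0.05, with 56 of 79 below 0, beside a median of 0.00 over all genes tested. By whether the libraries of the groups overlapped, 6 mitochondrially encoded genes were higher and 2 lower, and 0 nuclear genes were higher and 3 lower; 18.4% of all genes were higher and 19.7% lower by the same measure.

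mt-Nd4l, a small membrane subunit of complex I, had the smallest p among the members. It had 17.5 and 17.9 CPM in Malt1_PD, 14.9 and 14.4 CPM in Malt1_WT, against 11.7 and 10.8 CPM in Vector. The 3 groups did not overlap, in that order. Its log2 fold change was 0.66 ± 0.12 (SE) between Malt1_PD and Vector (edgeR adjusted p = 0.186) and 0.38 ± 0.12 between Malt1_WT and Vector (edgeR adjusted p = 0.574). Over 15 alternative settings (scaling, filter, test, block, length trend or a library left out) its adjusted p between Malt1_PD and Vector spanned 0.0179 to 1.00, and it passed the threshold in 2 of them, with no low-count filter and without replicate 2 of Vector. Since mt-Nd4l is copied on chromosome 1, the counts of Gm10222 were added to it, which gave 0.49 ± 0.10 (edgeR adjusted p = 0.259). mt-Nd4, made on the same bicistronic mRNA, had 1187 and 1133 CPM in Malt1_PD, against 1211 and 1140 CPM in Vector, which overlapped. The log2 fold change of mt-Nd4 between Malt1_PD and Vector was -0.02 ± 0.07 (edgeR adjusted p = 0.963).

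Among the genes outside the copied stretch, mt-Cytb had 1990 and 1918 CPM in Malt1_PD, 1664 and 1657 CPM in Malt1_WT, against 1866 and 1697 CPM in Vector. Malt1_PD was the highest group and Malt1_WT the lowest, with no overlap, and the log2 fold change between Malt1_PD and Vector was 0.13 ± 0.07 (edgeR adjusted p = 0.654). mt-Nd1 and mt-Nd2, which form part of the membrane arm of complex I, had 2249 and 2180 CPM and 2286 and 2198 CPM in Malt1_PD, against 2062 and 1883 CPM and 2126 and 1912 CPM in Vector. Both were higher in Malt1_PD without overlap, by 0.17 ± 0.07 and 0.15 ± 0.07 (log2), and neither passed (edgeR adjusted p = 0.581 and 0.620). mt-Nd6, the light-strand gene, ran the other way, with 396 and 338 CPM in Malt1_PD, 358 and 402 CPM in Malt1_WT, against 405 and 475 CPM in Vector. It was lower in Malt1_PD than in Vector by a log2 fold change of -0.26 ± 0.11 (edgeR adjusted p = 0.581). mt-Nd5, a large proton-pumping subunit, had 1842 and 1677 CPM in Malt1_PD and 1678 and 1965 CPM in Vector, which overlapped.

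In complex IV, mt-Co1 had 9962 and 9847 CPM in Malt1_PD, 8970 and 8957 CPM in Malt1_WT, against 10449 and 10412 CPM in Vector. The 3 groups were separate, and the libraries of each lay closer together than the groups did. Between Malt1_PD and Vector the log2 fold change was -0.07 ± 0.05 (edgeR adjusted p = 0.727). mt-Co3, a core subunit of complex IV, had 100 and 103 CPM in Malt1_PD, against 92.0 and 70.3 CPM in Vector, and the log2 fold change was 0.32 ± 0.13 (edgeR adjusted p = 0.560). Its adjusted p spanned 0.0331 to 1.00 over the 15 settings and passed in 2, without replicate 1 of Vector and with the length trend removed together with the replicate number as a block (0.0407).

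mt-Co2 had 155 and 149 CPM in Malt1_PD and 154 and 104 CPM in Vector, and mt-Atp6, the proton channel of complex V, had 83.6 and 86.7 CPM in Malt1_PD and 86.4 and 55.9 CPM in Vector. Among these 4 libraries only Vector replicate 2 was low in both genes, while Malt1_WT replicate 2 was also below its partner, at 123 CPM for mt-Co2 and 70.6 CPM for mt-Atp6. Without Vector replicate 2 the log2 fold changes of 0.23 and 0.26 turned to -0.02 and -0.02. mt-Atp8 had 15.9 and 15.3 CPM in Malt1_PD and 15.0 and 9.08 CPM in Vector, and mt-Nd3, another complex I subunit, 19.7 and 17.9 CPM in Malt1_PD and 18.6 and 12.0 CPM in Vector. They showed the same low Vector replicate 2, as did the sum of the chromosome 1 copies, at 0.0270% of counts there and 0.0325% to 0.0386% in the other 5 libraries.

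Among the nuclear genes the lowest log2 fold changes between Malt1_PD and Vector were in complex V. Atp5s had 9.93 and 10.3 CPM in Malt1_PD, 11.0 and 10.7 CPM in Malt1_WT, against 16.1 and 11.4 CPM in Vector. Malt1_PD was lowest, and replicate 1 of Vector stood far above all others. The log2 fold change was -0.45 ± 0.18 (edgeR adjusted p = 0.560, 0.0297 to 1.00 over 15 settings, under the threshold in 1, without Vector replicate 2). Atp5o, the stalk subunit that gives oligomycin sensitivity, had 31.4 and 34.5 CPM in Malt1_PD, 35.7 and 34.2 CPM in Malt1_WT, against 44.6 and 35.9 CPM in Vector. Its log2 fold change was -0.29 ± 0.12 (edgeR adjusted p = 0.576, 0.0351 to 1.00 over 15 settings, under the threshold in 1, again without Vector replicate 2). The third nuclear gene lower without overlap was Atp5d, the delta subunit of the stalk, named after its values were seen.

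The remaining extremes were smaller or poorly counted. Ndufa4l2, the third lowest, had 0.569 and 0.357 CPM in Malt1_PD and 1.01 and 0.0560 CPM in Vector, and the log2 fold change was -0.21 ± 1.02 (edgeR adjusted p = 0.974). The highest were Cox7a1 at 0.18 ± 0.53, Ndufs7, an iron-sulphur core subunit of complex I, at 0.11 ± 0.16, and Cox5a, a matrix-side subunit of complex IV, at 0.11 ± 0.10, with edgeR adjusted p-values between 0.802 and 0.949. Of the 79 nuclear genes tested, 75 had a log2 fold change between -0.2 and 0.2, and for 77 the 95% interval lay within a change of 2-fold either way. With 2 libraries a group, smaller differences were not detectable for most members: the median half-width of the interval was 0.33 (log2).

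Between Malt1_WT and Vector, which share the Vector libraries with the comparison above, edgeR again called no member, where 1 of 14675 genes was called (0.00681%). That gene was not Malt1, whose log2 fold change here was 1.44 ± 0.15 (edgeR adjusted p = 0.0920). DESeq2 and limma-voom called no member either. At an unadjusted p under 0.05, mt-Nd4l was higher and mt-Co1 and mt-Nd4 lower among the 13 mitochondrially encoded genes, and 1 of 79 nuclear genes was lower, where 3.3% of all genes were higher and 3.8% lower. Without overlap of the libraries, 1 mitochondrially encoded gene was higher and 4 lower, and 1 nuclear gene was higher and 5 lower, beside 15.5% and 17.1% of all genes. Median log2 fold changes were 0.00 for the mitochondrially encoded and -0.02 for the nuclear genes. Of the 5 mitochondrial genes outside the copied stretch, 4 were below 0 and their median was -0.10.

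mt-Co1 was the clearest member here: by the values above it was lower in Malt1_WT, at 0.859 of its Vector level, a log2 fold change of -0.22 ± 0.05 (edgeR adjusted p = 0.358). Its adjusted p spanned 0.00786 to 1.00 over 15 settings and passed in 3, with no low-count filter, without Vector replicate 1 and without Vector replicate 2. The fold change itself stayed between -0.22 and -0.20. mt-Nd4, a proton-pumping subunit of complex I, had 1005 and 1040 CPM in Malt1_WT, against 1211 and 1140 CPM in Vector. It was lower by a log2 fold change of -0.20 ± 0.07 (edgeR adjusted p = 0.612). mt-Cytb (-0.10 ± 0.07) and mt-Nd6 (-0.21 ± 0.11) were lower without overlap as well, and mt-Nd1 (-0.03 ± 0.07), mt-Nd2 (0.00 ± 0.07) and mt-Nd5 (-0.16 ± 0.10) overlapped; edgeR adjusted p-values of these 5 lay between 0.760 and 0.997.

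The values of mt-Nd4l are given above. The other genes copied over nearly their whole length had positive but wide values in Malt1_WT. mt-Co2 had 151 and 123 CPM there, mt-Co3 100 and 88.8 CPM, mt-Atp6 89.8 and 70.6 CPM, mt-Nd3 20.1 and 16.6 CPM, and mt-Atp8, which lies among them, 13.1 and 15.0 CPM. All 5 overlapped with Vector, with log2 fold changes of 0.08 to 0.26 and standard errors of 0.13 to 0.22, and 4 of them (not mt-Co3) were below 0 without replicate 2 of Vector.

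Sdhd, named after its values were seen, was the nuclear gene with an unadjusted p under 0.05. It had 106 and 97.6 CPM in Malt1_WT, against 127 and 113 CPM in Vector, and the log2 fold change was -0.23 ± 0.09 (edgeR adjusted p = 0.669), and 114 and 108 CPM in Malt1_PD. The lowest nuclear fold changes belonged to Ndufa4l2 (-0.54 ± 1.06), Cox7b2, a testis isoform of complex IV (-0.40 ± 0.35), and Atp5s (-0.35 ± 0.18). The highest belonged to Cox7a1 (0.33 ± 0.52), Ndufs7 (0.16 ± 0.15) and Uqcrb, the ubiquinone-binding protein of complex III (0.14 ± 0.13). Their edgeR adjusted p-values lay between 0.750 and 0.952, and 72 of the 79 nuclear genes lay between -0.2 and 0.2.

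Between Malt1_PD and Malt1_WT, which sets no Vector library against another, 12 of the 13 mitochondrially encoded genes had a positive log2 fold change, with a median of 0.14, and the nuclear genes had a median of -0.02. No member was called by edgeR, where 1 of 14675 genes was (0.00681%, not Malt1), and DESeq2 and limma-voom called no member. At an unadjusted p under 0.05, 5 of 13 mitochondrially encoded genes were higher, mt-Nd1, mt-Nd4, mt-Nd4l, mt-Cytb and mt-Co1, and 0 of 79 nuclear genes were higher or lower, where 1.08% of all genes were higher and 0.838% lower. Without overlap, 7 mitochondrially encoded genes were higher and 0 lower, and 6 nuclear genes were higher and 2 lower, beside 16% and 16.1% of all genes.

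The fold changes were small. From the values above, mt-Cytb differed by 0.23 ± 0.07, mt-Co1 by 0.14 ± 0.05, mt-Nd4 by 0.18 ± 0.07 and mt-Nd4l by 0.28 ± 0.12 (log2, edgeR adjusted p = 1.00 each). mt-Nd1 had 1996 and 1874 CPM in Malt1_WT, below both Malt1_PD libraries, and differed by 0.19 ± 0.07. mt-Nd2 had 2073 and 1975 CPM in Malt1_WT and differed by 0.15 ± 0.07. mt-Nd5, with 1530 and 1721 CPM in Malt1_WT, differed by 0.11 ± 0.10, and mt-Nd6 was the only one of the 13 below 0, at -0.05 ± 0.11. Apart from mt-Nd6 on the light strand, these genes come from shared precursor transcripts. All 13 are counted in the same libraries, so the direction shared by 12 of them is not 12 separate observations.

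The nuclear genes gave no such run of values. The highest log2 fold changes were those of Cox7b2 (0.34 ± 0.35), Ndufa4l2 (0.33 ± 1.10) and Ndufb3, an accessory subunit of complex I (0.14 ± 0.18). The lowest were those of Ndufc1, another accessory subunit (-0.20 ± 0.18), Atp5l, the g subunit of the ATP synthase membrane part (-0.16 ± 0.15), and Cox7a1 (-0.15 ± 0.52). Of the 79 genes, 77 lay between -0.2 and 0.2. Medians by complex were -0.01 for complex I, 0.03 for complex II, -0.02 for complex III, -0.02 for complex IV and -0.02 for complex V.

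**Figure D5:**
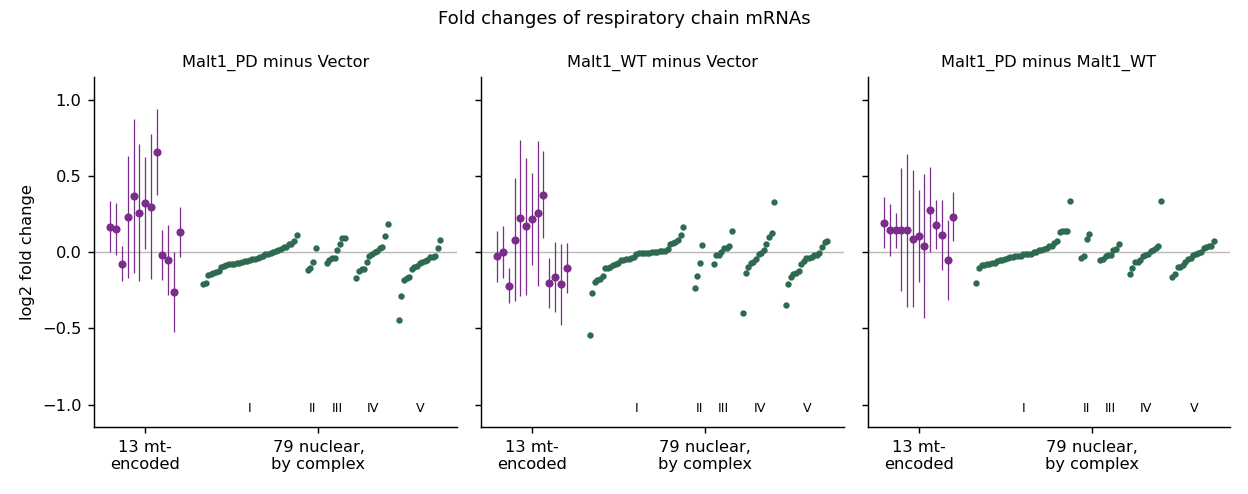
Log2 fold changes of the members in Malt1_PD against Vector, Malt1_WT against Vector and Malt1_PD against Malt1_WT. Purple points are the 13 mitochondrially encoded genes in genome order with 95% intervals, and green points the 79 nuclear genes tested, sorted within complexes I to V; 12 of 13 purple points lie above 0 in the right panel, and most green points lie between -0.2 and 0.2 in each.

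The fold changes of the 2 gene sets moved with the library pairs described above. Without replicate 1 of Vector the nuclear median between Malt1_PD and Vector was 0.15, and without replicate 2 of Vector it was -0.22, while the mitochondrially encoded median was 0.24 and 0.05. Between Malt1_WT and Vector the nuclear median was 0.18 and -0.21 in the same settings. Between Malt1_PD and Malt1_WT the nuclear median was 0.10 without replicate 1 of Malt1_WT and -0.12 without replicate 2, and the mitochondrially encoded median was 0.19 and 0.14. The direction of the nuclear set against Vector or Malt1_WT thus depended on a single library.

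Genes that serve the chain without being members did not pass in any comparison. Among subunits and carriers that the symbol rule misses, such as Cyc1, cytochrome c1, and Cycs, cytochrome c, 0 of 5 tested genes were called, with medians of -0.08 for Malt1_PD and -0.10 for Malt1_WT against Vector. Of 43 assembly factors tested, 0 were called, with medians of -0.05, -0.07 and 0.00 in Malt1_PD against Vector, Malt1_WT against Vector and Malt1_PD against Malt1_WT. The smallest p against Vector was that of Coa7, a complex IV assembly factor, with 16.3 and 12.5 CPM in Malt1_PD and 11.0 and 9.52 CPM in Vector (0.49 ± 0.17, edgeR adjusted p = 0.498). Timmdc1, a complex I assembly factor, had -0.27 ± 0.11 and Cox17, a copper chaperone of complex IV, -0.54 ± 0.22 in the same comparison.

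For mitochondrial gene expression, 0 of 34 genes were called. Fastkd2, an RNA-binding protein needed for the mitochondrial ribosome, had 44.0 and 41.5 CPM in Malt1_PD, 32.3 and 35.7 CPM in Malt1_WT, against 35.2 and 35.1 CPM in Vector. Malt1_PD lay above both other groups, by 0.33 ± 0.10 against Malt1_WT (edgeR adjusted p = 1.00) and 0.28 ± 0.10 against Vector (edgeR adjusted p = 0.496). Mtpap, the mitochondrial poly(A) polymerase, had -0.25 ± 0.09 and Polg, the polymerase of mitochondrial DNA, 0.21 ± 0.09 between Malt1_PD and Vector. Of 77 mitochondrial ribosomal protein genes 0 were called, with medians of -0.05, -0.04 and 0.00 in the 3 comparisons, and of 17 citric acid cycle genes 0 were called, with medians of -0.06, -0.02 and -0.02. Of the 14 regulators of mitochondrial biogenesis, 9 were tested and 0 called. The coactivators Ppargc1a and Ppargc1b had at most 1 count in any library, while their relative Pprc1 had 109 to 144 CPM and the factors Nrf1 and Gabpa 58.4 to 67.8 CPM and 88.8 to 97.0 CPM.

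By the correlation of log2 CPM over the 6 libraries, a description with no test over 14583 other genes, the patterns nearest to mt-Cytb were those of Ecscr (r = 0.996), Acot9 (r = 0.984), Gm26885, Sapcd2 and Noc3l. Ecscr and Gm26885 were low, at 0.898 to 2.21 CPM and 0.449 to 1.14 CPM. Acot9, a mitochondrial acyl-CoA thioesterase, had 90.4 and 87.8 CPM in Malt1_PD, 81.9 and 80.8 CPM in Malt1_WT, against 88.2 and 81.5 CPM in Vector. Those nearest to mt-Co1 were Ccna2, cyclin A2 (r = 0.985), Tgif2, Lamp2, Prkaa1 and Zfp961. Lamp2, a lysosomal membrane protein, had 235 and 237 CPM in Malt1_PD, 221 and 215 CPM in Malt1_WT, against 247 and 246 CPM in Vector. Among the members, mt-Nd1 was nearest to mt-Cytb (r = 0.929) and mt-Nd4 to mt-Co1 (r = 0.915). These correlations run over libraries that differ in depth and, within Malt1_WT and within Vector, by gene length as given above.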

How the data were processed

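The deposited table gives raw read counts per gene for 6 libraries, with gene length and gene type. Per the labels' protocols, directional libraries were made from 1 μg of total RNA and sequenced as paired reads of 150 bases. The submitters' processing notes list Trim Galore 0.6.0, STAR 2.7.3a, featureCounts 1.6.3 and build GRCm38.p6. Not given in the sources used here were the strand setting, the treatment of reads that match several places, any selection of poly(A) RNA and the annotation release. The 6 log RPKM columns of the same table were not used, since 4 carry repeated names. A spreadsheet had turned 25 symbols into dates, which were restored from gene identifiers.

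Genes were kept by filterByExpr by group (minimum count 10), which left 14675 genes, with 92 of the 95 members: all 13 mitochondrially encoded and 79 of 82 nuclear ones. Cox4i2, Cox6a2 and Cox6b2 did not pass. Counts were fitted with edgeR 4.0.16 (R 4.3.3; TMM factors, glmQLFit and glmQLFTest) over all 6 libraries with a mean per group and no covariate. Dispersion was 0.0101 in common, or 10.1% as a coefficient of variation, and 3 residual degrees of freedom remained. Benjamini-Hochberg adjustment ran over all genes tested, with calls under 0.05. Log2 CPM used a prior count of 2. The floor of 3 counts equals 0.150 to 0.214 CPM and covers counting error only. The fit was tested on simulated counts drawn with a single dispersion. Those counts held no length trend and no shift between replicates, so that test does not cover these features of the libraries.

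Alternatives were DESeq2 size factors, library sizes from nuclear genes only, no low-count filter, limma-voom (limma 3.58.1), DESeq2's Wald test (version 1.42.0), a fit on only the libraries of both groups, a block for the replicate number, removal of the length trend (lowess, genes with a log2 CPM of 3 or more), and leaving out each library. Fits without replicate 1 of both Vector and Malt1_WT, and those that add or leave out the chromosome 1 copies, were chosen after seeing the data. Copies were found with blastn among GENCODE M21 transcripts (at least 150 bases at 98% identity).

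Named were all mitochondrially encoded members, called members, the 3 highest and 3 lowest nuclear fold changes per comparison, the highest and lowest nuclear gene per complex (1 of them is not reported here), tissue isoforms, up to 3 genes per list by p (not all printed), and the 5 genes most like mt-Cytb and mt-Co1. Members and lists were chosen with earlier results of these data known, and the list of 5 genes that collect ribosomal sequence came from them.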

Additional observations from a re-analysis of the deposited data

How the results depend on the processing

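Of 969 values of named members under alternative settings, 39 changed side of the threshold and 53 changed sign, 43 of these where the reported value was smaller than its standard error. Counts of genes called in Malt1_PD against Vector, Malt1_WT against Vector and Malt1_PD against Malt1_WT were 1 each in the reported fit, and 188, 113 and 12 with no low-count filter. DESeq2 called 43 in the first and 31 in the second, and removing the length trend 95 and 56. The replicate numbers do not pair the libraries by any label (correlations of deviations 0.68 for Malt1_WT with Vector, -0.01 for Malt1_PD with Vector and 0.03 for Malt1_PD with Malt1_WT). The replicate block gave 9, 6 and 1 genes, and 253, 198 and 1 with the length trend removed as well. Members called became 1 with no filter against Vector in each comparison (mt-Nd4l in Malt1_PD, mt-Co1 in Malt1_WT) and 1 (mt-Co3) with both the block and the length trend in the first.

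Leaving out 1 library gave 0 to 864 genes and 0 to 4 members in Malt1_PD against Vector, with the highest counts without replicate 2 of Vector, and 1 to 526 genes and 0 to 2 members in Malt1_WT against Vector. Without replicate 1 of Vector these came to 70 genes and 1 member, and 39 genes and 1 member. In the first comparison it moved the mitochondrially encoded median between 0.051 and 0.24, the nuclear one between -0.22 and 0.15 and their difference between 0.088 and 0.27. In the second it moved them between -0.092 and 0.083, -0.21 and 0.18, and -0.10 and 0.12. Without replicate 1 of both Vector and Malt1_WT, where the spread rests on the Malt1_PD pair alone (1 residual degree of freedom) and each other group is 1 library assumed to vary like it, 2089, 934 and 351 genes and 40, 11 and 13 members passed. In Malt1_PD against Vector this fit gave a mitochondrially encoded median of 0.24, a nuclear median of 0.15 and a difference of 0.088. In that comparison the nuclear median of the reported fit was -0.05, of the opposite sign. Shares of all genes by direction are not given for this fit, so its member counts stand beside genes passing in either direction only. With 1 library in Vector and in Malt1_WT, no conclusion is drawn from these counts. The cause of the larger counts was not tested. With only the 5 genes outside the copied stretch, the mitochondrially encoded median of Malt1_WT against Vector was -0.10.

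Among reported values at least as large as their standard error, signs turned without Vector replicate 2 in Malt1_PD against Vector for mt-Co2 (-0.022 to 0.54 over the libraries left out), mt-Atp6 (-0.020 to 0.61) and Cox5a (-0.0004 to 0.23), and in Malt1_WT against Vector for mt-Atp8 (-0.09 to 0.73), mt-Nd3 (-0.030 to 0.60), Uqcrb (-0.043 to 0.35) and Ndufs7 (-0.038 to 0.39). That of mt-Nd3 also turned with its copy's counts added (-0.0057). Cox7b2 (-0.87 to 0.029) turned without Malt1_WT replicate 2 (0.0014) and without Vector replicate 1. Smaller values that turned without Vector replicate 2 included Ndufs7 (-0.086) and Cox7a1 (-0.058) in Malt1_PD against Vector, and mt-Co2 (-0.17) and mt-Atp6 (-0.11) in Malt1_WT against Vector. With protein-coding counts as denominator the mitochondrially encoded share was 2.05% in Malt1_PD, 1.84% in Malt1_WT and 2.02% in Vector, and the nuclear share in Malt1_PD 0.941%. With 2 libraries a group, depth limited the rare isoforms, and the spread between libraries limited the other members.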

Other observations

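Genes of the mitochondrial genome other than mRNAs were also counted. The 16 mitochondrial tRNA genes with a row took 473 and 512 counts in Malt1_PD, 444 and 547 in Malt1_WT, and 554 and 504 in Vector, about 0.003% of each library. Among the chromosome 1 copies, Gm28439, the copy of part of mt-Nd4, had 45.6 and 45.6 CPM in Malt1_PD, 40.3 and 38.6 CPM in Malt1_WT, against 36.3 and 32.8 CPM in Vector. The 3 groups did not overlap, in the order seen for mt-Nd4l, which ends where mt-Nd4 begins, while mt-Nd4 itself was lowest in Malt1_WT. The log2 fold change of Gm28439 between Malt1_PD and Vector was 0.40 ± 0.09 (edgeR adjusted p = 0.304), and no copy was called in any comparison.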
